A study of Mus musculus with 4 samples.

Results

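Collagens and other genes of the fibroblast matrix were examined in sorted myeloid cells of the mouse large intestine. They comprised the probe sets that name exactly 1 gene and whose symbol is that of a collagen chain (Col, a number, a, a number) or one of 13 further matrix genes. This gave 78 probe sets for 48 genes, of 20380 single-gene probe sets for 12393 genes on the array. Of the 48 genes, 36 encoded collagen chains and 12 were the others, while Fbn1 was named by no such probe set and was not analysed here.

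RNA came from 4 populations of the lamina propria, the connective tissue beneath the gut epithelium, of C57BL/6J mice with no treatment or mutation in the labels. CX3CR1high macrophages carried CD11c, CD11b and much of the fractalkine receptor CX3CR1. CD11b+ cells carried CD11b without CD11c, CX3CR1- cells carried both CD11c and CD11b without CX3CR1, and cells with high CD11c but no CD11b were taken as dendritic cells (DCs). Titles in the labels also call the CD11b+ cells Mf and the CX3CR1- cells DC, whereas DCs here means only the CD11b-negative population. Each population was measured on 1 Affymetrix 3' array, so that no value has a replicate and no difference was tested, and the number of mice and their age are not given in the sources used here.

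Collagens are the main fibres of connective tissue. Fibrillar types form the tensile fibres of the lamina propria, type IV forms the sheet of basement membranes, and type VI forms fine beaded filaments around cells. Small leucine-rich proteoglycans such as decorin coat the fibrils, and glycoproteins such as fibronectin and periostin tie cells and fibres together. Fibroblasts are the textbook makers of most of these proteins, whereas macrophages are better known for taking up and degrading collagen. Fibronectin and SPARC have also been described in macrophages.

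Values are MAS5 signals in linear intensity units, which the authors had scaled to the same trimmed mean of 500 on every array. The pooled median of the probe sets, a signal of 103, served as the floor, to which dimmer signals were raised before division. Where 1 of the signals was raised the ratio is a bound, given as "at least", and where both were raised no ratio is given. The call limit was 2-fold. Where a gene had several probe sets, the brightest by mean log2 signal stood for it. Over all genes, the log2 ratios of different probe sets for 1 gene had an SD of 0.31 to 0.52 in the 6 pairs of populations. Only probe sets at or above the floor on both sides entered it. This SD leaves out differences between mice and collections. The 6 pairs share arrays, so they are not independent of each other.

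The leukocyte genes on the arrays were compared with the gates first. Ptprc, the pan-leukocyte marker CD45, had signals between 7233 and 9504 in the 4 populations. The CD11b gene, Itgam, fell below the floor for DCs alone (45.9). Itgax, which encodes CD11c, stood at 1826 for CX3CR1high macrophages, 1864 for CD11b+ cells, 8412 for CX3CR1- cells and 5893 for DCs. It was thus high in 2 of the 3 populations gated on CD11c, while the CD11b+ cells, gated without it, had nearly the signal of CX3CR1high macrophages. Control transcripts differed between the arrays too. The 18 probe sets for bacterial and phage transcripts that are usually spiked into each hybridisation (bioB, bioC, bioD and cre) had geometric mean signals of 3131 for CX3CR1high macrophages, 5671 for CD11b+ cells, 3837 for CX3CR1- cells and 2293 for DCs. Gapdh probe sets near the 3' and 5' ends gave signal ratios (3' over 5', larger for more degraded RNA) of 1.08 for CX3CR1high macrophages, 2.17 for CD11b+ cells, 3.40 for CX3CR1- cells and 0.791 for DCs. For Actb that ratio was 1.68 for CX3CR1high macrophages, 3.18 for CD11b+ cells, 2.76 for CX3CR1- cells and 1.11 for DCs. Ptprc and Itgam were picked for this comparison after their values were seen.

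Of the 48 genes, 31 reached the floor in at least 1 population, as did 7847 of all 12393 genes. The other 17 of the 48 were under it everywhere, with no signal above 94.3, and all were collagen chains. They were Col2a1, Col11a1, Col4a3, Col4a4, Col4a6, the 3 chains of the cartilage collagen IX, and Col10a1, Col12a1, Col13a1, Col17a1, Col19a1, Col20a1, Col22a1, Col25a1 and Col26a1. Type II, IX and X collagens are known from cartilage. By population, 27 of the 48 genes were at or above the floor in CX3CR1high macrophages, 31 in CD11b+ cells, 29 in CX3CR1- cells and 19 in DCs. The shares over all genes were 57.2% for CX3CR1high macrophages, 56.9% for CD11b+ cells, 55.8% for CX3CR1- cells and 52.7% for DCs.

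Most of the 31 genes shared one order of signals. In 29 of them CD11b+ cells had the highest signal, which was so in 23.4% of all 7847 genes that reached the floor somewhere. Mfap4 and Col8a1 reached the floor in CD11b+ cells alone, so that their highest place was fixed by the floor. CX3CR1- cells were highest for 2 (18.3% of the 7847 genes), CX3CR1high macrophages for 0 (25.9%) and DCs for 0 (32.4%). DCs had the lowest signal in 27 of the 31, against 31.8% of those genes. In the other 4, Col5a3, Col8a1, Mfap4 and Prelp, CX3CR1high macrophages were under the floor too, where signals have no order. CD11b+ cells highest with DCs lowest was found in 25, against 12.3%. In 19 of the 31 CX3CR1- cells came next after CD11b+ cells, and then CX3CR1high macrophages, an order found in 6.51% of those genes. With the arrays scaled to the spiked hybridisation controls, that order held for 13 of 30 members and 1.02% of all genes. In that setting 26 of 30 were highest in CD11b+ cells (3.32% of all genes) and 25 of 30 lowest in DCs (10.8%). On the authors' scale the members' median log2 ratio of CX3CR1high macrophages over CX3CR1- cells was -0.31. It was smaller in size than the SD between probe sets of a gene in that pair, 0.42. Among the 19 genes with the full order were Col4a1 (-0.08), Sparc (-0.13) and Postn (-0.14). A dimmer Sparc probe set had 1146 for CX3CR1high macrophages and 1041 for CX3CR1- cells, the reverse. Col11a2, a minor fibrillar chain, and Col7a1, the anchoring fibril collagen, were highest in CX3CR1- cells instead. Col11a2 had 120.2 for CX3CR1high macrophages, 108 for CD11b+ cells, 141 for CX3CR1- cells and 68.2 for DCs, and Col7a1 had 105 for CX3CR1high macrophages, 116 for CD11b+ cells, 118 for CX3CR1- cells and 65.5 for DCs. Their ratios and bounds were all under 2-fold.

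**Figure D1:**
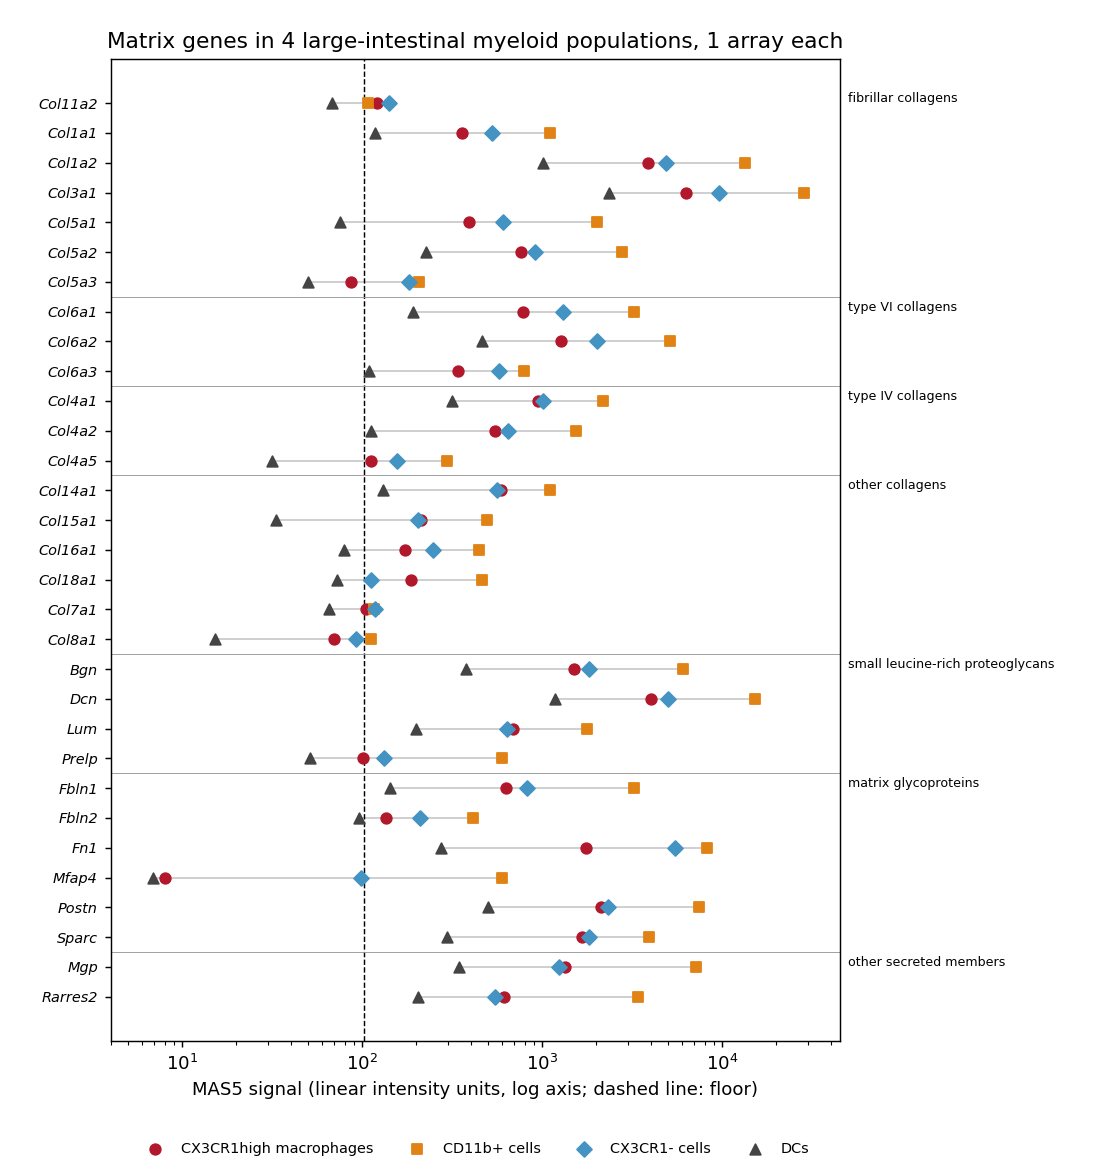
Signals (x axis, linear intensity units on a log scale) of the 31 matrix genes that reached the floor (dashed line, 103), 1 row per gene and 1 array per population, grouped by kind of protein. The squares of CD11b+ cells lie furthest right in 29 rows and the triangles of DCs furthest left in all 31, in 4 of them beside another signal under the floor, while CX3CR1high macrophages and CX3CR1- cells lie between them and often close to each other.

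The fibrillar collagens I, III and V followed this order, apart from Col5a3, for which both CX3CR1high macrophages and DCs were under the floor. Col3a1, the chain of type III collagen, which is abundant in soft tissues such as gut, had a signal of 6261 for CX3CR1high macrophages, 28325 for CD11b+ cells, 9639 for CX3CR1- cells and 2360.5 for DCs. Its signal was thus 4.52-fold lower on the array of CX3CR1high macrophages than on that of CD11b+ cells, and 12.0-fold higher in CD11b+ cells than in DCs. Col1a2, a chain of type I collagen, stood at 3882 for CX3CR1high macrophages, 13382 for CD11b+ cells, 4876 for CX3CR1- cells and 1015 for DCs. The partner chain Col1a1 had 358 for CX3CR1high macrophages, 1110.5 for CD11b+ cells, 525 for CX3CR1- cells and 117 for DCs. Both type I chains were therefore close in their ratios: 3.45-fold and 3.10-fold lower on the array of CX3CR1high macrophages than on that of CD11b+ cells. The type V chains, which help to start fibrils of type I, behaved likewise. Col5a2 had 766 for CX3CR1high macrophages, 2766 for CD11b+ cells, 918 for CX3CR1- cells and 227 for DCs. Col5a1 had 393 in CX3CR1high macrophages, 2013 in CD11b+ cells and 608 in CX3CR1- cells, while its signal for DCs (75.4) was below the floor. Col5a3 lay near the floor, with its highest signal, 206, in CD11b+ cells.

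Upstream sequences are shown for a pair of fibrillar collagen genes and for the proteoglycan gene Bgn, whose signals moved alike across the populations. Each line gives the 250 bases before the annotated start, 5' to 3' on the gene's strand, from RefSeq on GRCm38.p6. Capitals mark the letters CCAAT (a box bound by NF-Y factors), TATAAA and GGGCGG (a GC box), searched on both strands, so that CCGCCC is GGGCGG on the other strand.
Col1a2, chr6:4505368-4505617, plus strand: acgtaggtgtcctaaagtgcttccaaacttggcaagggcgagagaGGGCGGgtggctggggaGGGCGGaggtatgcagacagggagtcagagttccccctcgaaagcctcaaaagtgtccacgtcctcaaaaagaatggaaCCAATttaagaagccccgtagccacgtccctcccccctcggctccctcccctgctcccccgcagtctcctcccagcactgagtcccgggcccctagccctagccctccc
Col3a1, chr1:45311288-45311537, plus strand: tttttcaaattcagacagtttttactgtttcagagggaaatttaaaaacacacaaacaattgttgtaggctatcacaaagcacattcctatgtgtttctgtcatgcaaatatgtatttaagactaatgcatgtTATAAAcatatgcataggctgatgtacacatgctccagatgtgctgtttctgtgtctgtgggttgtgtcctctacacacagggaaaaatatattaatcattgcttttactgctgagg
Bgn, chrX:73483351-73483600, plus strand: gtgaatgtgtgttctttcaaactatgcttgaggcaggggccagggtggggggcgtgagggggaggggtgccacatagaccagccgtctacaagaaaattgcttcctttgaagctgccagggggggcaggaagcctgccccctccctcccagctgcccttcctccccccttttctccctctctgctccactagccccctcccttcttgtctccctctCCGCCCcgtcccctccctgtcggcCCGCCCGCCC

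None of these motifs was in all 3 windows. The Col1a2 window held CCAAT, starting at position -109 from the annotated start, and GGGCGG at -205 and -188. The Col3a1 window held only TATAAA, at -117, and the Bgn window held only GGGCGG on the other strand, at -34, -10 and -6, with the last 2 overlapping. Their GC contents were 62.0%, 35.2% and 64.4%. RefSeq promoters were at hand for 22 of the 31 genes (26 windows). CCAAT was in 34.6% of these windows against 33.8% of all 32851 windows, TATAAA in 11.5% against 12.4%, and GGGCGG in 57.7% against 32.7%. These are letter matches only.

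Type VI and type IV collagens gave the same picture. Among the type VI chains, Col6a1 had 782 for CX3CR1high macrophages, 3246 for CD11b+ cells, 1302 for CX3CR1- cells and 192 for DCs. Its partner Col6a2 had 1275 for CX3CR1high macrophages, 5117 for CD11b+ cells, 2010.1 for CX3CR1- cells and 464 for DCs. Col6a3 had 341 for CX3CR1high macrophages, 790.3 for CD11b+ cells, 578 for CX3CR1- cells and 109 for DCs. Col6a3 differed less between the CD11b+ and CX3CR1- cells (1.37-fold) than Col6a1 (2.49-fold) or Col6a2 (2.55-fold). Of the basement membrane chains, Col4a1 had 953 for CX3CR1high macrophages, 2169 for CD11b+ cells, 1006 for CX3CR1- cells and 317 for DCs. Col4a2 had 545 for CX3CR1high macrophages, 1536 for CD11b+ cells, 649 for CX3CR1- cells and 112 for DCs. Col4a5 had 112 for CX3CR1high macrophages, 295 for CD11b+ cells, 155 for CX3CR1- cells and 31.6 for DCs. These 3 type IV genes were 2.28-fold to 2.82-fold lower on the array of CX3CR1high macrophages than on that of CD11b+ cells. Other collagens ran from Col14a1, which associates with fibrils, to the basement membrane collagens Col15a1 and Col18a1. Col14a1 was at 589.6 for CX3CR1high macrophages, 1107 for CD11b+ cells, 559 for CX3CR1- cells and 130.1 for DCs. Col15a1 was at 212 for CX3CR1high macrophages, 494 for CD11b+ cells, 203 for CX3CR1- cells and 33.2 for DCs. The fibril-associated Col16a1 was at 174 for CX3CR1high macrophages, 444 for CD11b+ cells, 249 for CX3CR1- cells and 78.8 for DCs. Col18a1, whose C-terminal fragment is endostatin, stood apart from these in being 1.65-fold higher in CX3CR1high macrophages (186) than in CX3CR1- cells (113), with 463 in CD11b+ cells and 72.9 in DCs. For Col18a1 a dimmer probe set went the opposite way (106 in CX3CR1high macrophages, 127 in CX3CR1- cells).

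Some of these genes are neighbours in the GRCm38.p6 annotation, with no other protein-coding gene between them. For Col3a1 and Col5a2 the log2 ratios of CD11b+ cells over DCs were 3.58 and 3.61. They were 3.46 and 4.08 for Col6a2 and Col6a1, 3.70 and 3.16 for Dcn and Lum, and 2.77 and 3.78 for Col4a1 and Col4a2. Over all 19 members measured on both sides these ratios ran from 2.77 to 4.91. Other neighbours lacked such a ratio for at least 1 of the genes. Col9a1 and Col19a1, as well as Col4a4 and Col4a3, were under the floor in all 4 populations. Col4a6 was too (83.9 at most), whereas its neighbour Col4a5 had 295 in CD11b+ cells.

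Small leucine-rich proteoglycans, which bind collagen fibrils, had much the same ratios as the fibrils' own genes. For CX3CR1high macrophages over CD11b+ cells the median log2 ratio was -1.98 for the 4 proteoglycans and -1.79 for the 7 fibrillar chains above the floor. Decorin, Dcn, had 4005 for CX3CR1high macrophages, 15299 for CD11b+ cells, 4971 for CX3CR1- cells and 1173 for DCs. Biglycan, Bgn, had 1496 for CX3CR1high macrophages, 6093 for CD11b+ cells, 1826 for CX3CR1- cells and 379 for DCs. Both were about 4-fold lower on the array of CX3CR1high macrophages than on that of CD11b+ cells (3.82-fold and 4.07-fold). Lumican, Lum, had 689.6 for CX3CR1high macrophages, 1775 for CD11b+ cells, 637 for CX3CR1- cells and 198 for DCs. Prelp, a proteoglycan that anchors basement membranes to connective tissue, was at 599 in CD11b+ cells and 132 in CX3CR1- cells. It was under the floor in CX3CR1high macrophages (101) and DCs (51.6), and so at least 5.82-fold lower on the array of CX3CR1high macrophages than on that of CD11b+ cells. A dimmer Prelp probe set was under the floor in all 4 populations (52.7 at most).

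The 6 matrix glycoproteins had a median log2 ratio of -2.02 for CX3CR1high macrophages over CD11b+ cells, and held the widest departures. Fn1, which encodes fibronectin, had 1753 for CX3CR1high macrophages, 8235 for CD11b+ cells, 5494 for CX3CR1- cells and 274 for DCs. It was the only gene of the 48 past 2-fold between CX3CR1high macrophages and CX3CR1- cells, 3.13-fold lower in CX3CR1high macrophages. Its ratio of CX3CR1- cells over DCs, 20.1-fold, was the largest of all members, where the median was 4.08-fold. A further Fn1 probe set was near or under the floor, with 33.9 for CX3CR1high macrophages, 81.7 for CD11b+ cells, 111 for CX3CR1- cells and 21.5 for DCs. There CX3CR1- cells were again above CX3CR1high macrophages, but also above CD11b+ cells. Mfap4, a microfibril-associated glycoprotein, was above the floor in CD11b+ cells alone, at 601, with 8.04 in CX3CR1high macrophages, 98.9 in CX3CR1- cells and 6.92 in DCs. It was at least 5.84-fold higher in CD11b+ cells than in each of DCs and CX3CR1- cells, and at least 5.84-fold lower on the array of CX3CR1high macrophages than on that of CD11b+ cells.

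The other glycoproteins were also highest in CD11b+ cells. Periostin, Postn, which binds collagen and promotes its cross-linking, had 2111 for CX3CR1high macrophages, 7395 for CD11b+ cells, 2322 for CX3CR1- cells and 501 for DCs. Sparc, whose protein binds collagen as it is secreted, had 1664 for CX3CR1high macrophages, 3919 for CD11b+ cells, 1826 for CX3CR1- cells and 297 for DCs. With a ratio of 2.36-fold, Sparc differed least among the 12 genes that are no collagens between CX3CR1high macrophages and CD11b+ cells. Fbln1, a fibulin of basement membranes and elastic fibres, had 632 for CX3CR1high macrophages, 3242 for CD11b+ cells, 822 for CX3CR1- cells and 142 for DCs. Fbln1 was 5.13-fold lower on the array of CX3CR1high macrophages than on that of CD11b+ cells, beyond the 4.70-fold of Fn1. Fbln2 was dimmer on the array, with 135 for CX3CR1high macrophages, 412 for CD11b+ cells, 209 for CX3CR1- cells and 96.4 for DCs.

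Among ratios measured on both sides, Mgp and Rarres2 had the largest for CD11b+ cells over CX3CR1- cells. Mgp encodes matrix Gla protein, an inhibitor of calcification, and had 1341 for CX3CR1high macrophages, 7126 for CD11b+ cells, 1247 for CX3CR1- cells and 345 for DCs. Rarres2 encodes chemerin, a chemoattractant for myeloid cells, and had 613 for CX3CR1high macrophages, 3399.7 for CD11b+ cells, 548 for CX3CR1- cells and 204 for DCs. They were 5.71-fold and 6.21-fold higher in CD11b+ cells than in CX3CR1- cells; for Fn1 that log2 ratio was 0.58. A second Rarres2 probe set gave 596 for CX3CR1high macrophages, 3019.6 for CD11b+ cells, 508 for CX3CR1- cells and 159 for DCs. A further Rarres2 probe set was under the floor in all 4 populations (20.7 at most). Cmklr1, the signalling receptor of chemerin, was under the floor in all 4 populations (23.6 at most), and Ccrl2, which binds chemerin without signalling, was at 4038 for CX3CR1high macrophages, 2001 for CD11b+ cells, 1470.2 for CX3CR1- cells and 415 for DCs.

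Counts over the 48 genes put these values together. Without a ratio in any pair were 17 genes, and a gene that reached the floor through 1 population only had to differ, so the counts describe these arrays and are not support for a difference. In CX3CR1high macrophages 0 of the 48 were 2-fold or more higher and 27 were 2-fold or more lower when set against CD11b+ cells, beside 4.66% and 5.83% of all 7512 genes with a ratio. The median log2 ratio was -1.63 over the 31 members with a ratio and -0.02 over all genes. Of the 27, 15 were among the 36 collagens and 12 were the 12 other genes. Over the 27 measured on both sides, the quartiles of the log2 ratios were -2.04 and -1.28. Against CX3CR1- cells CX3CR1high macrophages had 0 members higher and 1 lower (8.56% and 6.54% of all genes), with medians of -0.31 and 0.02. Against DCs they had 21 members higher and 0 lower (17.4% and 10.2%), with medians of 1.76 and 0.02.

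The other pairs completed the ranking. The CD11b+ cells had 21 members higher and 0 lower than CX3CR1- cells (5.19% and 3.55% of all genes), with a median log2 ratio of 1.32 against 0.06 over all genes. Over DCs they had 28 members higher and 0 lower (17.0% and 10.4%), with medians of 3.24 and 0.07. The CX3CR1- cells had 22 members higher and 0 lower than DCs (13.7% and 8.70%), with medians of 2.03 and 0.04. Nearest to the limit, Col14a1 was 1.88-fold lower for CX3CR1high macrophages against CD11b+ cells, and Col14a1 (1.98-fold) and Fbln2 (1.97-fold) fell just short for CD11b+ cells over CX3CR1- cells. Scaled to the hybridisation controls, 12 members instead of 27 were lower in CX3CR1high macrophages against CD11b+ cells (1.17% of all genes). Likewise 11 instead of 21 were higher in CD11b+ cells against CX3CR1- cells (1.46%). The member medians were then -0.85 and 0.77, both under 2-fold in size. Relative to the median of all genes they were -1.60 and 1.24, beside -1.61 and 1.26 on the authors' scale. That scaling shifts all genes of a pair together, so the relative medians could change only through the floor. With the floor at 453, the 75th percentile, 10 were higher in CX3CR1high macrophages and 12 in CX3CR1- cells against DCs (13.8% and 10.2% of all genes). With no floor 35 were higher in CX3CR1- cells (21.6%). In these bulk samples fewer cells of a type and less RNA per cell cannot be told apart.

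At 4-fold the members split in the same way. Against CD11b+ cells, CX3CR1high macrophages had 0 members higher and 11 lower (0.865% and 0.799% of all genes), against CX3CR1- cells 0 and 0 (1.38% and 1.26%), and against DCs 7 and 0 (6.06% and 1.95%). CD11b+ cells had 5 higher and 0 lower than CX3CR1- cells (0.488% and 0.569%), and 26 higher and 0 lower than DCs (6.00% and 1.96%). For CX3CR1- cells over DCs the counts were 16 and 0 (3.50% and 0.798%).

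**Figure D2:**
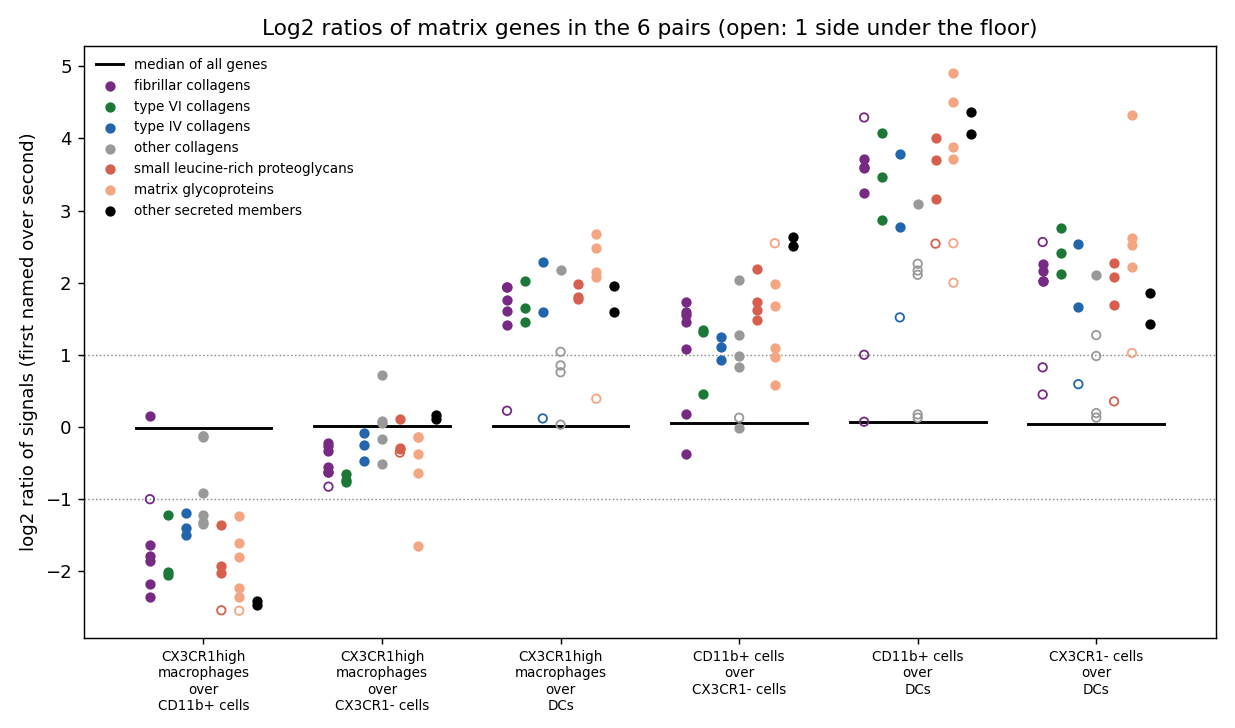
Log2 ratios (y axis, first-named population over the second) of the matrix genes in the 6 pairs, 1 point per gene and coloured by kind, with open points for bounds, black lines for the median of all genes and dotted lines at 2-fold. All points but that of Col11a2 (0.15) lie below the line for CX3CR1high macrophages over CD11b+ cells (median -1.63), near it over CX3CR1- cells (-0.31, with Fn1 lowest at -1.65) and mostly above it in the 4 other pairs.

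Further probe sets of the members gave the same direction in most cases. Of 30 such probe sets, 15 had a ratio for CX3CR1high macrophages over CD11b+ cells, all 15 with the sign of the first probe set and 12 past 2-fold. For CD11b+ cells over DCs the 15 with a ratio also had the same sign, and 13 were past 2-fold. In size, bounds included, their log2 ratios differed from the first probe set by a median of 0.72 and by 3.88 at most. These differences were 0.17 and 1.95 for CX3CR1high macrophages over CD11b+ cells, and 0.34 and 4.22 for CX3CR1- cells over DCs. Between CX3CR1high macrophages and CX3CR1- cells, 3 of 14 had the opposite sign, and between CD11b+ and CX3CR1- cells 1 of 16, that of Fn1. The other Col3a1 probe set was dimmer and gave a smaller ratio, with 260.4 for CX3CR1high macrophages, 516 for CD11b+ cells, 321 for CX3CR1- cells and 82.6 for DCs.

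Genes that make, modify or accompany collagen were compared with these. For CX3CR1high macrophages over CD11b+ cells, the shares over all genes were 4.66% higher and 5.83% lower. In the list of other small proteoglycans and matricellular genes, 0 of 20 measured genes were higher and 11 lower on the array of CX3CR1high macrophages than on that of CD11b+ cells, with a median log2 ratio of -1.85. Dermatopontin, Dpt, had 1557 for CX3CR1high macrophages, 6610.1 for CD11b+ cells, 2795 for CX3CR1- cells and 579.6 for DCs. Ccn2, a growth factor-binding matrix protein, had 597 for CX3CR1high macrophages, 2848 for CD11b+ cells, 869 for CX3CR1- cells and 164 for DCs. Ecm1 did not share the pattern, with 4944 for CX3CR1high macrophages, 3673 for CD11b+ cells, 3814 for CX3CR1- cells and 224 for DCs. Thbs1, which encodes thrombospondin 1, was at 7048 for CX3CR1high macrophages, 15215 for CD11b+ cells, 5979 for CX3CR1- cells and 327 for DCs. In the elastic fibre list 0 of 11 were higher and 6 lower on the array of CX3CR1high macrophages than on that of CD11b+ cells (median -1.65), among them Efemp1 (3.83-fold), Fbln5 (3.66-fold) and Ltbp4 (3.40-fold). In the basement membrane list without collagen IV, 1 of 13 was higher and 5 lower (median -0.45), with the laminin chain Lamb1 3.12-fold lower.

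Enzymes and helpers of collagen synthesis were divided. In CX3CR1high macrophages 0 of 19 were higher and 5 lower than in CD11b+ cells, with a median of -0.33. Pcolce, which enhances the cleavage of procollagen, was at 611 for CX3CR1high macrophages, 2170.4 for CD11b+ cells, 1017 for CX3CR1- cells and 166 for DCs. Loxl1, a cross-linking enzyme, was 5.48-fold lower in CX3CR1high macrophages (228) than in CD11b+ cells (1252), and Serpinh1, the collagen chaperone HSP47, 2.41-fold lower (765 in CX3CR1high macrophages, 1842 in CD11b+ cells). Colgalt1, which adds galactose to collagen, was within 2-fold in that pair (1369 in CX3CR1high macrophages, 1309.6 in CD11b+ cells). Receptors for collagen differed among themselves. Mrc1, the mannose receptor, which takes up collagen, had 17169 for CX3CR1high macrophages, 5178 for CD11b+ cells, 3436 for CX3CR1- cells and 97.8 for DCs. Lair1, an inhibitory collagen receptor of leukocytes, had 1091 for CX3CR1high macrophages, 559 for CD11b+ cells, 318 for CX3CR1- cells and 144 for DCs. Lair1 was within 2-fold between CX3CR1high macrophages and CD11b+ cells. Mrc2, a collagen uptake receptor known from fibroblasts, was above the floor in CD11b+ cells alone (262), with 92.2 in CX3CR1high macrophages, 72.1 in CX3CR1- cells and 20.5 in DCs. Over the list of 9 collagen receptors, 6 with a ratio, 1 was higher and 1 lower on the array of CX3CR1high macrophages than on that of CD11b+ cells. Of the 7 fibronectin and chemerin receptors measured, 5 with a ratio, 1 was higher and 1 lower there. Itgb7, an integrin chain of gut homing that also binds fibronectin with Itga4, stood at 262 for CX3CR1high macrophages, 1126 for CD11b+ cells, 2275 for CX3CR1- cells and 3397 for DCs.

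Markers of other cell types moved with the matrix genes in part. Of 24 measured fibroblast genes that are not matrix, 16 reached the floor somewhere, and in CX3CR1high macrophages 0 were higher and 11 lower than in CD11b+ cells (median -1.58). Their summed signal was 17282 for CX3CR1high macrophages, 46315 for CD11b+ cells, 21645 for CX3CR1- cells and 11808 for DCs, and the 48 matrix genes summed to 32209 for CX3CR1high macrophages, 122464 for CD11b+ cells, 44503 for CX3CR1- cells and 9607 for DCs. Cxcl12, a chemokine of stromal cells, had 1054 for CX3CR1high macrophages, 4694 for CD11b+ cells, 1289.9 for CX3CR1- cells and 267 for DCs. Tcf21, a transcription factor of mesenchyme, had 510.3 for CX3CR1high macrophages, 2150.2 for CD11b+ cells, 489.9 for CX3CR1- cells and 180.3 for DCs. Pdgfra, a receptor that defines gut fibroblasts and was picked after its values were seen, had 120.0 for CX3CR1high macrophages, 576 for CD11b+ cells, 207 for CX3CR1- cells and 30.1 for DCs. Gsn, the actin-severing gelsolin, had 8621 for CX3CR1high macrophages, 27080.4 for CD11b+ cells, 13943 for CX3CR1- cells and 9235 for DCs, and made up most of the list's sum in CD11b+ cells, CX3CR1- cells and DCs. Without Gsn the list summed to 8661 for CX3CR1high macrophages, 19234 for CD11b+ cells, 7702 for CX3CR1- cells and 2573 for DCs. Pdpn, which macrophages also express, had 3461 for CX3CR1high macrophages, 3399 for CD11b+ cells, 2042 for CX3CR1- cells and 828 for DCs. Serpinf1, Il33, Dpep1 and Scara5, also picked after their values were seen, differed little in that pair. Serpinf1 had 804 for CX3CR1high macrophages, 809 for CD11b+ cells, 202 for CX3CR1- cells and 210 for DCs. Il33 had 174 for CX3CR1high macrophages, 195 for CD11b+ cells, 248 for CX3CR1- cells and 54.4 for DCs. Dpep1 and Scara5 were 1.23-fold and 1.25-fold lower in CX3CR1high macrophages than in CD11b+ cells. Under the floor everywhere were Twist1, Twist2, Prrx1, Foxf1, Foxl1, Gas1, Bmp5 and Wnt5a. The part of these cells in the matrix signals was not tested.

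Smooth muscle genes did not follow the matrix genes in every pair. In CX3CR1high macrophages 0 of 14 were higher and 0 lower than in CD11b+ cells (9 with a ratio, median -0.07), beside 4.66% and 5.83% of all genes. Against DCs 7 were higher and 0 lower (8 with a ratio, median 1.71), beside 17.4% and 10.2%. Acta2, smooth muscle actin, had 1558 for CX3CR1high macrophages, 1920.4 for CD11b+ cells, 1736 for CX3CR1- cells and 367 for DCs. Summed signals of this list were 6323 for CX3CR1high macrophages, 5712 for CD11b+ cells, 6199 for CX3CR1- cells and 1548 for DCs. Endothelial genes had 2 of 14 higher and 0 lower on the array of CX3CR1high macrophages than on that of CD11b+ cells (median 0.34), and epithelial genes 10 of 11 higher and 0 lower (median 2.32). The epithelial sum was 17117 for CX3CR1high macrophages, 3029 for CD11b+ cells, 7337 for CX3CR1- cells and 4413 for DCs, so its highest array was not that of the matrix genes. Of the 6 glial genes measured, 2 had a ratio between CX3CR1high macrophages and CD11b+ cells, and 0 were past 2-fold. Of the blood cell lists in that pair, the neutrophil and eosinophil list had 0 of 12 higher and 4 lower (8 with a ratio). The mast cell list had 0 and 1 of 10 (2 with a ratio), and genes of B and plasma cells 0 and 1 of 8 (6 with a ratio). Genes of T, NK and innate lymphoid cells had 1 and 0 of 9 (3 with a ratio). Where so few genes had a ratio, a low count does not show that the populations were alike. The leukocyte and macrophage genes had 3 of 11 higher and 0 lower.

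The spiked hybridisation controls moved in the same order as the matrix genes, with means smaller in size than the matrix medians in all 6 pairs. Their mean log2 ratio was -0.86 ± 0.13 (SD over 18 probe sets) for CX3CR1high macrophages over CD11b+ cells, where the matrix median was -1.63. For CX3CR1high macrophages over CX3CR1- cells they gave -0.29 ± 0.12, against -0.31 for the matrix genes. For CD11b+ cells over DCs they gave 1.31 ± 0.22, against 3.24. The 24 probe sets for poly-A control transcripts (dap, lys, phe and thr) gave other ratios. Their mean log2 ratio was -1.04 ± 0.22 (SD over 24 probe sets) for CX3CR1high macrophages over CD11b+ cells, -0.93 ± 0.27 over CX3CR1- cells and -0.30 ± 0.28 over DCs. Over CX3CR1- cells the matrix median (-0.31) was thus smaller in size than theirs, and over DCs (1.76) it had the opposite sign. For CD11b+ cells these controls gave 0.11 ± 0.23 over CX3CR1- cells and 0.74 ± 0.28 over DCs, and for CX3CR1- cells over DCs 0.63 ± 0.35. Scaled to the hybridisation controls, the matrix medians were -0.85 for CX3CR1high macrophages over CD11b+ cells and -0.02 over CX3CR1- cells. For CD11b+ cells over DCs the matrix median was then 2.16. The medians over all genes moved to 0.75, 0.29 and -1.10 in the same pairs. Relative to all genes, the matrix medians were -1.60, -0.31 and 3.25, beside -1.61, -0.33 and 3.17 on the authors' scale. As this scaling shifts all genes of a pair together, these relative medians could change only through the floor. The part of the control differences and of the 3' over 5' ratios in the matrix signals was not tested.

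**Figure D3:**
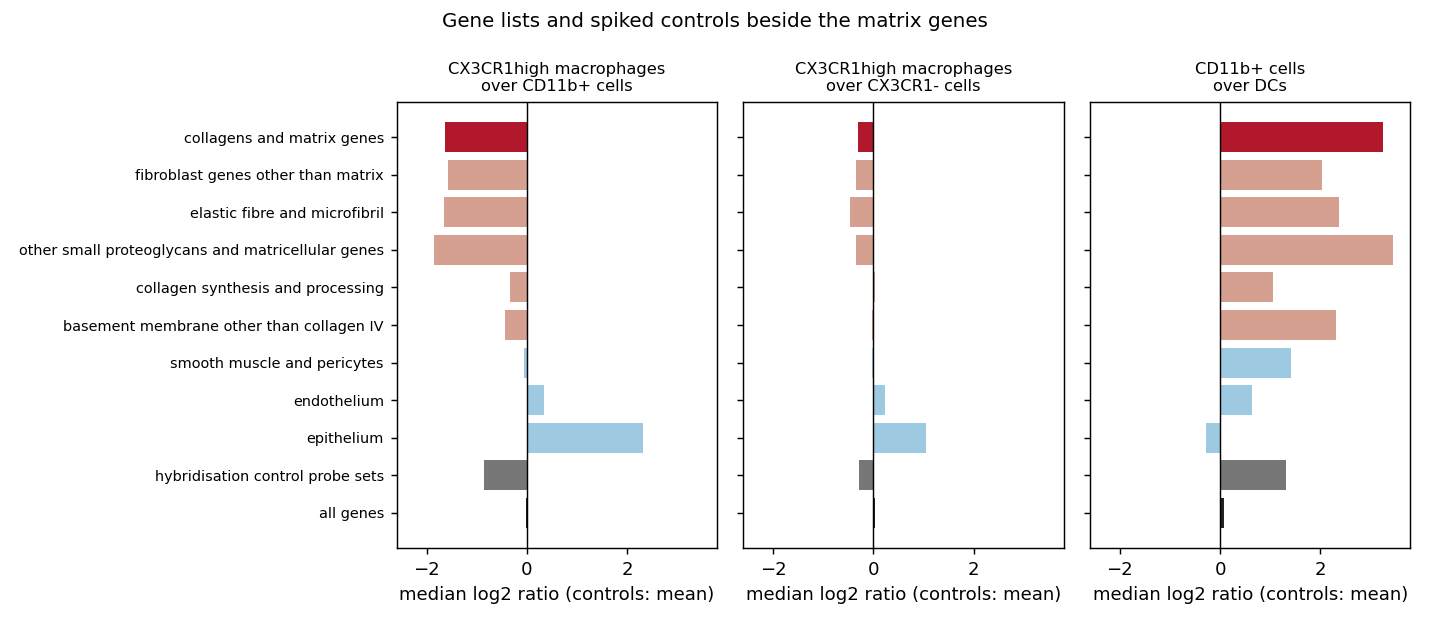
Median log2 ratios (x axis) of the matrix genes, of 8 gene lists and of all genes, with the mean for the 18 hybridisation control probe sets, in 3 of the pairs. In CX3CR1high macrophages over CD11b+ cells the fibroblast, elastic fibre and proteoglycan lists lie near the matrix genes (-1.58, -1.65 and -1.85 beside -1.63), smooth muscle lies at -0.07 and epithelium at 2.32.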

How the data were processed

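RNA of 4 sorted populations was measured on 1 Affymetrix 3' array each, and groups were taken from the labels. The deposited values are linear signal intensity values, 1 for each probe set. MAS5 is named in the submitters' processing notes, without a version. The 2% trimmed mean was 500 on every array. Of 22690 probe sets, 64 were controls, 691 named several genes and 1555 named none, and these were not used for genes. All 48 member genes matched RefSeq by Entrez number. No value was normalized further. The floor, the pooled median (103), the 2-fold limit and the choice of a gene's probe set are given above. The order of populations was taken after raising signals to the floor, and ties there did not count. A single array per population allows neither a test nor an error, and precision is limited by that number. The members, the 16 lists (198 of 235 genes measured) and the settings were chosen with earlier results of these data known. Members are named with all signals if they were at least 4-fold apart in a pair or on a fixed list (26 genes), with a few more members given for their place near a limit or in the order, and list genes if among the 4 brightest that differ 2-fold in a pair. Alternatives were 7 fixed settings of floor, scaling and probe set, and 1 added after seeing the data (scaling to the hybridisation controls). Calculations used Python 3.11.15 with pandas 2.3.3 and numpy 2.4.6, and were checked on simulated data.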

Additional observations from a re-analysis of the deposited data

How the results depend on the processing

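The 15 counts over the matrix genes (higher and lower in 6 pairs, and 3 on the order of populations) were recomputed under 8 settings, and 99 of 120 values stayed within 1.5 times. All did so with quantile normalization, with equal medians and without shared probe set types. No called ratio of a named gene changed its sign, but many changed in size. Of the ratios of named genes, 934 were counted as the same and 227 as moved. Of those moved, 117 were with the scaling to the hybridisation controls and 50 with the floor at 453. For the member medians 40 were counted as the same and 8 as moved, 5 of them with that scaling. In what follows, percentages in brackets are shares over all genes. With the floor at the 25th percentile (22.9) CX3CR1high macrophages had 1 member higher (10.3%) and 3 lower (7.63%) than CX3CR1- cells. They had 1 lower than DCs (10.5%), and 40 members had a ratio in each of these pairs. CD11b+ cells then had 1 lower than CX3CR1- cells (5.43%) and 2 lower than DCs (10.7%), and CX3CR1- cells 1 lower than DCs (8.79%). With the floor at the 75th percentile (453), which leaves fewer genes, 10 were higher in CX3CR1high macrophages than in DCs (13.8%). In CX3CR1- cells 12 were higher than in DCs (10.2%), and DCs were lowest for 17 of 24 (27.2%). With no floor, when all 48 genes have a ratio, CX3CR1high macrophages had 1 higher than CD11b+ cells, 5 higher and 7 lower than CX3CR1- cells and 5 lower than DCs. CD11b+ cells had 4 lower than CX3CR1- cells (11.3%) and 4 lower than DCs (15.2%). CX3CR1- cells had 35 higher (21.6%) and 3 lower (13.4%) than DCs. With all probe sets of a gene averaged, 2 were lower in CX3CR1high macrophages than in CX3CR1- cells (5.76%). Scaled to the hybridisation controls, added after seeing the data, 12 were lower for CX3CR1high macrophages against CD11b+ cells (1.17%). In CX3CR1high macrophages 1 was higher than in CX3CR1- cells (14.3%), and 11 were higher in CD11b+ cells than in CX3CR1- cells (1.46%). This scaling shifts all genes of a pair together. Equal medians changed the split over all genes for CX3CR1high macrophages over DCs to 13.3% higher and 18.3% lower, where 17.4% and 10.2% stand on the authors' scale. No paired analysis was possible because each population has 1 array. Signals under the floor have no order, and without replicates none of these ratios has an error.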
